A study of Mus musculus with 142 samples.

Results

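The second day of differentiation of K27M brainstem oligodendrocyte precursor cells (OPCs) is described here through 17 RNA-seq libraries of a series of 16 groups: 8 wells harvested at day 2 and 9 wells harvested at day 1. They are all the libraries labelled as K27M brainstem OPC culture at these days, and they come from 3 cultures, numbered 38, 41 and 42. Culture 38 gave 2 wells at day 2, and every other culture and day gave 3. The K27M mice carried a conditional knock-in of lysine-to-methionine histone H3.3 at H3f3a, recombined by Cre under the human GFAP promoter. OPCs were immunopanned for PDGFRa from the pooled brainstems of pups at postnatal days 5 to 7. They were expanded in medium with forskolin, CNTF, neurotrophin-3 and PDGF, then switched to medium with forskolin, CNTF and thyroid hormone for 2 days or 1 day. For comparison, the same step was measured in control brainstem (OPCs of littermates, 9 wells at day 2 and 8 at day 1) and in K27M dorsal telencephalon (9 and 9 wells), in the same media and with the same culture numbers, but at other passages.

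OPCs divide in response to PDGF. When the mitogen is withdrawn and thyroid hormone is given, they leave the cell cycle, pass through a committed state marked by Gpr17 and Bcas1, and then make the proteins and lipids of myelin in a set order, with cytoskeletal and early myelin genes ahead of those of compact, wrapped myelin. The K27M histone inhibits PRC2, the complex that places the repressive mark H3K27me3, and is found in diffuse midline glioma, a tumour of the brainstem and midline.

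Each library held 38.5 to 82.4 M (mega) read pairs, with a median of 53.1 M at day 2 and 52.5 M at day 1. Values are given as CPM, counts scaled to the depth of each library, and changes as the log2 fold change of day 2 over day 1 ± SE. "Rose" and "fell" are used for genes with an adjusted p under 0.05 over the wells in edgeR, with culture as a block. Wells of a culture share its cells, but these p-values count each well on its own. Their spread holds both the spread between wells and differences in the change between cultures. P-values within 1 culture, or for a difference between cultures, rest on the spread between wells alone. A second test on counts summed within each culture and day has n = 3 cultures. Passage moved with day in culture 38 (passage 5 at day 2, passage 6 at day 1) and in culture 42 (passage 6 at day 2, passage 5 at day 1), while culture 41 was at passage 2 on both days. The labelled batch was the same on both days of a culture (batch 3 for culture 38, batch 4 for cultures 41 and 42). With passage as a covariate 7336 genes passed, 6944 of them shared with the fit without it. Under the culture block that covariate varied with day only in cultures 38 and 42, in opposite directions. It thus cannot separate passage from a difference between these cultures. Mitochondrially encoded genes took 1.51% to 4.58% of counts at day 2 and 1.31% to 4.77% at day 1.

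The genotype markers were read first. H3f3a, the knock-in gene, had 561, 605 and 765 CPM (lowest, median and highest well) at day 2, against 359, 482 and 610 CPM at day 1, and rose by 0.34 ± 0.09 (adjusted p = 0.0059). Prm1, which marks the Cre construct, lay between 48.2 and 59.8 CPM at day 2 and between 33.8 and 80.7 CPM at day 1 (-0.24 ± 0.10, adjusted p = 0.075). Olig2 and Sox10, which encode transcription factors of the whole lineage, were present in every well and changed by -0.08 ± 0.07 and 0.18 ± 0.15 without passing the test (adjusted p = 0.40 and 0.39).

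Over the second day the myelin programme came up in all 3 cultures. Of 17097 genes tested, 7056 passed over the wells (41.3%), 3351 of them higher (19.6%) and 3705 lower (21.7%), and the median change of all genes was -0.03. Of 37 myelin and mature oligodendrocyte genes listed, 33 were tested. Of these 28 rose and 0 fell, with a median change of 1.27, and 21 were higher in each of the 3 cultures on its own, against 6.24% of all genes. The size of the change differed between cultures for 26 of the 33, against 37.1% of all genes. The list had a median change of 1.11 in culture 38, 1.38 in culture 41 and 1.82 in culture 42.

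Mobp, which encodes a structural protein of compact myelin, had 32.8, 125 and 662 CPM (lowest, median and highest well) at day 2, against 0.176, 2.04 and 10.3 CPM at day 1. Every day 2 well stood above every day 1 well, although the cultures were far apart: the highest day 2 wells came from culture 41 and the lowest from culture 42. The change was 6.23 ± 0.16 (adjusted p = 1.3e-13). Across all genes, the 2 days did not overlap for 1.92%, with 1.05% higher and 0.871% lower at day 2, and 6 of the 33 myelin genes were among those higher.

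Mbp, which encodes the major protein holding the myelin layers together, had 1246, 3722 and 9063 CPM at day 2, against 68.5, 618 and 1829 CPM at day 1. The 2 days overlapped, with culture 41 at day 1 above culture 42 at day 2, but Mbp rose within each culture (3.01 ± 0.22 over all wells, adjusted p = 3.2e-08). The change was 2.55 in culture 38, 2.34 in culture 41 and 4.07 in culture 42, and it differed between them (adjusted p = 1.9e-08).

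**Figure D1:**
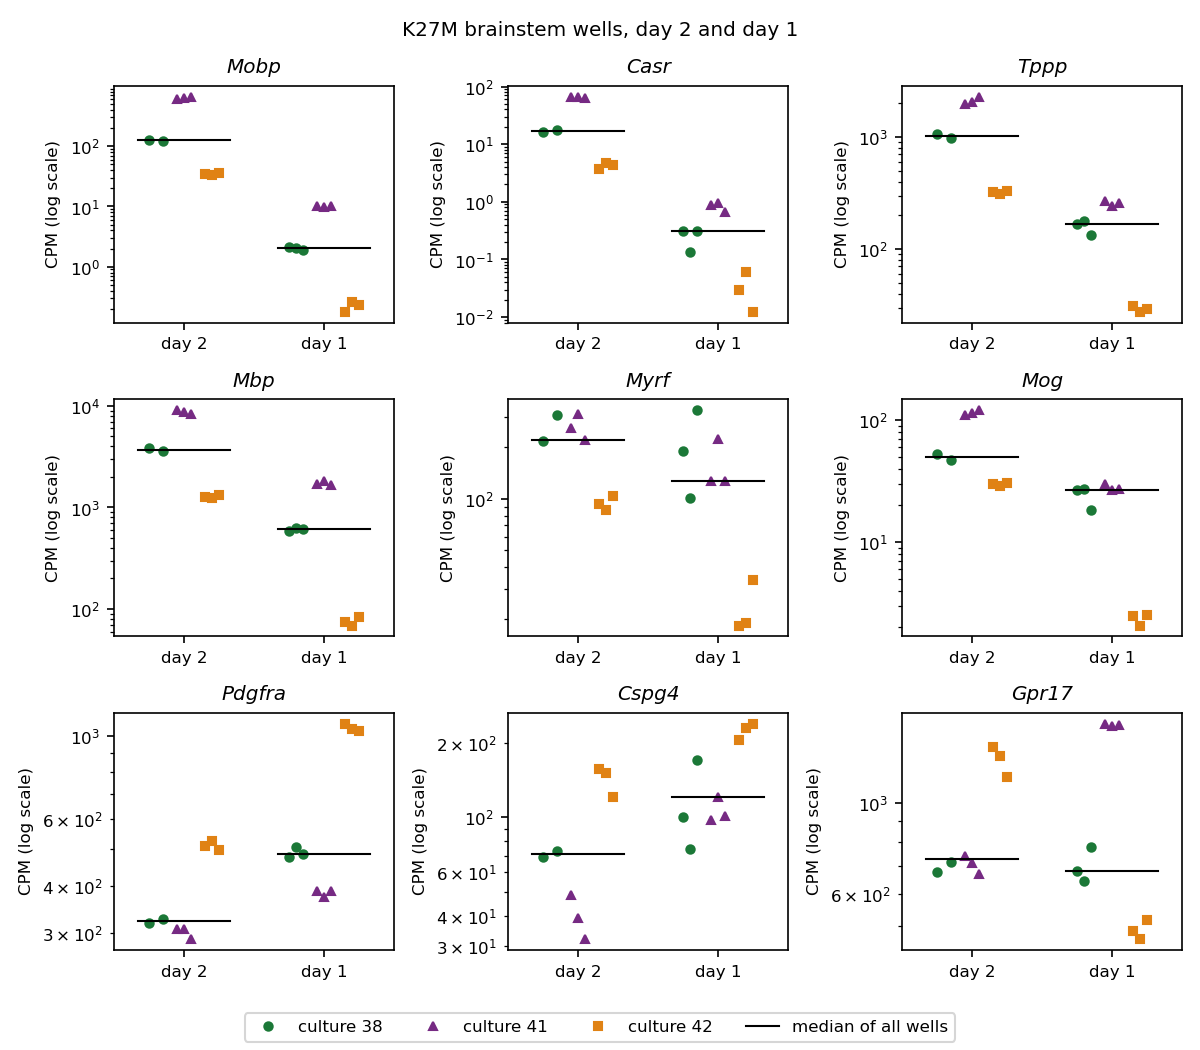
CPM of 9 genes in each K27M brainstem well, day 2 left of day 1, on a log scale; marker shape and colour give the culture and the black line the median of all wells. Mobp (32.8 to 662 CPM at day 2, 0.176 to 10.3 CPM at day 1), Casr and Tppp do not overlap between days, Mbp does, and Gpr17 moves in opposite directions in cultures 41 and 42.

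Further myelin genes rose within each culture, to differing degrees. Mag, an adhesion protein on the axon-facing membrane, changed by 2.63 ± 0.20, and Mog, a protein of the outermost membrane, by 2.30 ± 0.29. Cldn11, the tight junction protein of myelin, stood out by its evenness: it changed by 1.14, 1.16 and 1.22 in cultures 38, 41 and 42 (1.18 ± 0.05 over all wells). Ermn, a cytoskeletal protein of late oligodendrocytes, was nearly undetected at day 1 (0 to 0.249 CPM) and had 0.512 to 20.7 CPM at day 2 (5.84 ± 0.38, adjusted p = 7.2e-09). Tspan2, a membrane protein of myelinating cells, did not overlap between days either (108 to 315 CPM at day 2, 40.2 to 105 CPM at day 1).

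Myrf, the transcription factor that switches on myelin genes, was detected in every day 1 well, at levels far apart. It had 86.6, 219.5 and 311 CPM at day 2, against 18.2, 126 and 329 CPM at day 1, and rose by 1.06 ± 0.28 (adjusted p = 0.0068). Only culture 42 passed on its own, at 1.99. A few late genes moved both ways: Opalin, a surface protein of mature oligodendrocytes, changed by 3.83 in culture 42, 0.47 in culture 38 and -0.53 in culture 41, and Car2, carbonic anhydrase, by -1.08 in culture 42, 1.12 in culture 38 and 2.78 in culture 41. Each of these 6 changes passed within its culture, and neither gene passed over all wells (adjusted p = 0.095 and 0.10).

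When counts were summed within cultures, 26 of 19592 genes passed in edgeR, all of them higher at day 2, and 3958 had an unadjusted p under 0.05. Of these, 25 also passed over the wells (0.146% of genes tested there), and 19 that met the rule for named genes are described. Each of the 19 had an adjusted p of 0.0498 in edgeR on the sums, just under the threshold of 0.05. DESeq2 on the same sums called 1564 genes, 1027 higher and 537 lower. Fitting the wells with a correlation within each culture and day, by limma-voom, called 3816.

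The 19 genes included late oligodendrocyte genes and genes of signalling and the cytoskeleton. Passing on culture-summed counts favours genes with similar changes in each culture, so evenness among the 19 was in part selected by the rule. Casr (chromosome 16, 36493696 to 36562141, GRCm38), the extracellular calcium-sensing receptor, had 3.73, 17.01 and 66.4 CPM at day 2, against 0.0122, 0.308 and 0.956 CPM at day 1 (6.28 ± 0.15). The days did not overlap, and its change did not differ detectably between cultures (6.02, 6.30 and 6.85 in cultures 38, 41 and 42, adjusted p = 0.39).

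Tppp (chromosome 13, 74009407 to 74035753), which nucleates microtubules in oligodendrocyte processes, had 312, 1022 and 2293 CPM at day 2, against 27.4, 168 and 269 CPM at day 1. The lowest day 2 well was above the highest day 1 well (3.07 ± 0.11). Hapln2, a matrix link protein of the node of Ranvier, rose by 3.68 ± 0.13, Ptprb, a receptor tyrosine phosphatase, by 3.08 (5.46 to 38.6 CPM at day 2, 0.776 to 3.75 CPM at day 1), and Plekhg1, a guanine nucleotide exchange factor, by 3.05 (19.2 to 150.7 CPM at day 2, 2.92 to 18.1 CPM at day 1). None of these 3 overlapped between days.

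Smaller changes marked the rest of the 19. Prickle1, a planar polarity protein, rose by 1.93, Igsf11, an adhesion molecule, by 1.76, Eml1, a microtubule-binding protein, by 1.74, and Epha4, an ephrin receptor, by 1.58. Pik3r3, a regulatory subunit of PI3 kinase, rose by 1.54 and Mapk3, the kinase ERK1, by 1.38. Trf, transferrin, an iron carrier that oligodendrocytes secrete, rose by 1.29 ± 0.06 although its days overlapped (29.5 to 172 CPM at day 2, 13.5 to 62.4 CPM at day 1). Ccdc13 was the most even, with 1.37, 1.38 and 1.37 in cultures 38, 41 and 42. Plch2, Sorbs3, Sema6d, Rapgef5 and Tmem159 made up the rest, at 1.63 to 3.00.

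**Figure D2:**
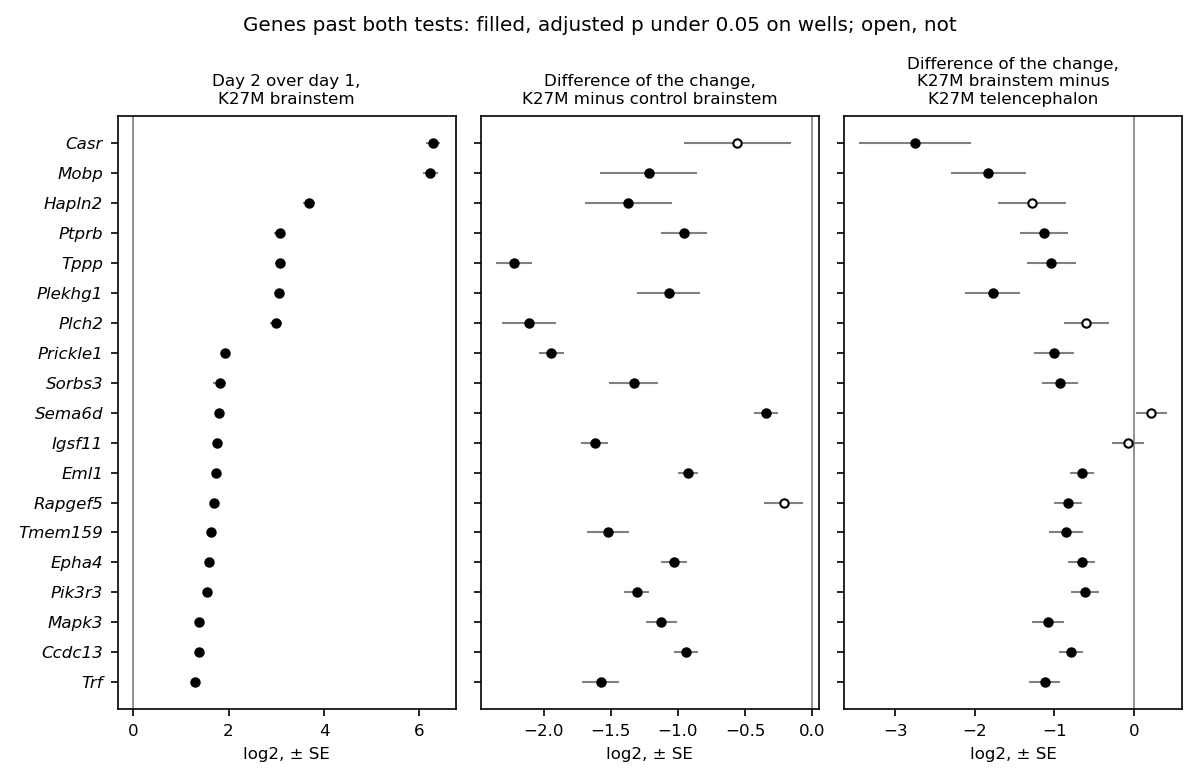
The 19 named genes that passed both over wells and on culture-summed counts, with the log2 change of day 2 over day 1 in K27M brainstem (left) and the difference of that change from control brainstem (middle) and from K27M telencephalon (right), each ± SE; filled points had an adjusted p under 0.05 over wells. All 19 changes are above 0 on the left, and Tppp has the lowest difference from control (-2.22).

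The committed state, which lies between OPC and myelinating cell, also moved unevenly between cultures. Of 25 genes of committed and newly formed oligodendrocytes, 17 rose and 0 fell (median 1.20), and 14 were higher in each culture, but the change differed between cultures for 20 of the 25. Among all genes 19.6% rose, 6.24% were higher in each culture and 37.1% differed between cultures. Gpr17, a receptor that is switched on in committed cells and off again before myelination, had 672, 730 and 1366 CPM at day 2, against 465, 680 and 1557 CPM at day 1. The 2 days overlapped fully (0.06 ± 0.28, adjusted p = 0.88). Within cultures Gpr17 changed by -0.06 in culture 38, -1.12 in culture 41 and 1.37 in culture 42 (difference between cultures, adjusted p = 1.7e-09).

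Bcas1, a marker of newly forming oligodendrocytes, was split in the same way: 0.28 in culture 38, -0.92 in culture 41 and 1.36 in culture 42. Bmp4, a secreted differentiation inhibitor that committed cells make, changed by -0.80, -3.73 and 1.46, and Nkx2-2, a transcription factor of early differentiation, by -0.57, -2.18 and 1.37. All 4 genes were lower at day 2 in culture 41 and higher in culture 42. Genes of the same list that rose in every culture were Itpr2 (1.24 ± 0.13), a calcium release channel, Tmem163 (2.10 ± 0.32), a zinc transporter, Rras2 (1.77 ± 0.10), a Ras-family GTPase, and Enpp6 (1.24 ± 0.32), a choline phosphodiesterase of newly forming cells.

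OPC genes fell less steeply than myelin genes rose. Of 25 OPC genes 14 fell and 0 rose (median -0.45), against 21.7% and 19.6% of all genes. In each culture on its own 6 were lower, against 4.4% of all genes. Pdgfra, the PDGF receptor used for the immunopanning, had 288, 323 and 524 CPM at day 2, against 373, 487 and 1077 CPM at day 1. The days overlapped, with culture 42 the highest on both, and Pdgfra fell by 0.69 ± 0.08 on the log2 scale (adjusted p = 8.8e-06), by 0.66, 0.34 and 1.06 in cultures 38, 41 and 42. Cspg4, the NG2 proteoglycan of the OPC surface, had 32.1, 70.9 and 156 CPM at day 2, against 74.6, 121 and 239 CPM at day 1 (-0.96 ± 0.16). Cspg5 and Ptprz1, a proteoglycan and a receptor phosphatase of OPCs, also fell (-0.77 ± 0.10 and -0.45 ± 0.08).

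DNA replication genes fell together, and mitotic genes did not. All 32 genes of S phase and DNA replication fell over the wells (median -0.89), against 21.7% of all genes. The size differed between cultures for every one of them: all 32 fell in cultures 38 and 42, with medians of -0.83 and -1.65, while in culture 41 the median was -0.13, 5 were lower and 3 higher. Without culture 42 the number that fell was 15 of 32 (median -0.40). Of all genes, 14.8% were lower at day 2 in culture 38, 20.3% in culture 41 and 23.4% in culture 42.

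Cdc6, which loads the replicative helicase onto origins, had 7.62, 9.74 and 11.2 CPM at day 2, against 13.6, 17.5 and 36.6 CPM at day 1. Its days did not overlap, and it fell by 1.12 ± 0.19 on the log2 scale (adjusted p = 0.00023). Mcm6, a subunit of that helicase, had 39.7, 46.5 and 49.7 CPM at day 2, against 54.9, 77.5 and 185 CPM at day 1 (-1.04 ± 0.19), again without overlap. Mcm3, another subunit, Uhrf1, which carries DNA methylation through replication, and Ccne1, the cyclin of S phase entry, were the other 3 of the 5 list members with no overlap (-1.05, -1.08 and -0.91). Ccnd1, the D cyclin induced by growth factors, had 168 to 205 CPM at day 2 and 229 to 918 CPM at day 1 (-1.09 ± 0.22).

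Of 30 genes of G2 and mitosis, 4 fell and 0 rose over the wells (median -0.45), or 1 with passage as a covariate. Of all genes 21.7% fell and 19.6% rose over the wells. For the mitotic genes the cultures went opposite ways. All 30 were lower at day 2 in culture 38 and in culture 42, and 28 of the 30 were higher in culture 41, each past the test within that culture. Without culture 41 all 30 fell (median -1.18), and without culture 42 the median was 0.03, with 1 gene lower. Across all genes, 11.9%, 20.0% and 24.5% were higher in cultures 38, 41 and 42, and 10.3% were higher in 1 culture and lower in another. Ccnb1, cyclin B1, which drives entry into mitosis, had 75.6, 101 and 120 CPM at day 2, against 28.0, 188 and 276 CPM at day 1. The day 1 wells lay on both sides of the day 2 wells: those of culture 41 were the lowest of all 17. Within cultures Ccnb1 changed by -1.17, 1.40 and -0.94 in cultures 38, 41 and 42. Mki67, a marker of all cycling phases, changed by -1.09, 0.75 and -1.31, and Cdk1, the mitotic kinase, by -1.14, 0.85 and -1.44.

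The summed level of the 30 mitotic genes put the split at day 1. At day 0, in proliferation medium, the cultures averaged 5170, 5851 and 6452 CPM (cultures 38, 41 and 42). At day 1 they averaged 3843, 906 and 4642 CPM, at day 2 1826, 1634 and 2038 CPM, and at day 5 831, 787 and 984 CPM. Culture 41 stood apart from the others at day 1, and the 3 cultures lay closer together at days 2 and 5. The 25 replication-dependent histone genes had the same pattern: 25 were higher in culture 41, and 20 and 25 were lower in cultures 38 and 42, so that 0 passed over all wells in edgeR or in DESeq2 (1 at an unadjusted p under 0.05 in each). Without culture 41, 24 of the 25 fell. Of the 17 p53 targets 2 rose and 1 fell over all wells, against 19.6% and 21.7% of all genes. Within cultures, 14 of the 17 were higher in culture 41 and 12 lower in culture 42, against 20.0% and 23.4% of all genes. Cdkn1a, the p53 target that inhibits cyclin-dependent kinases, changed by 0.24, 2.10 and -0.72 in cultures 38, 41 and 42.

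**Figure D3:**
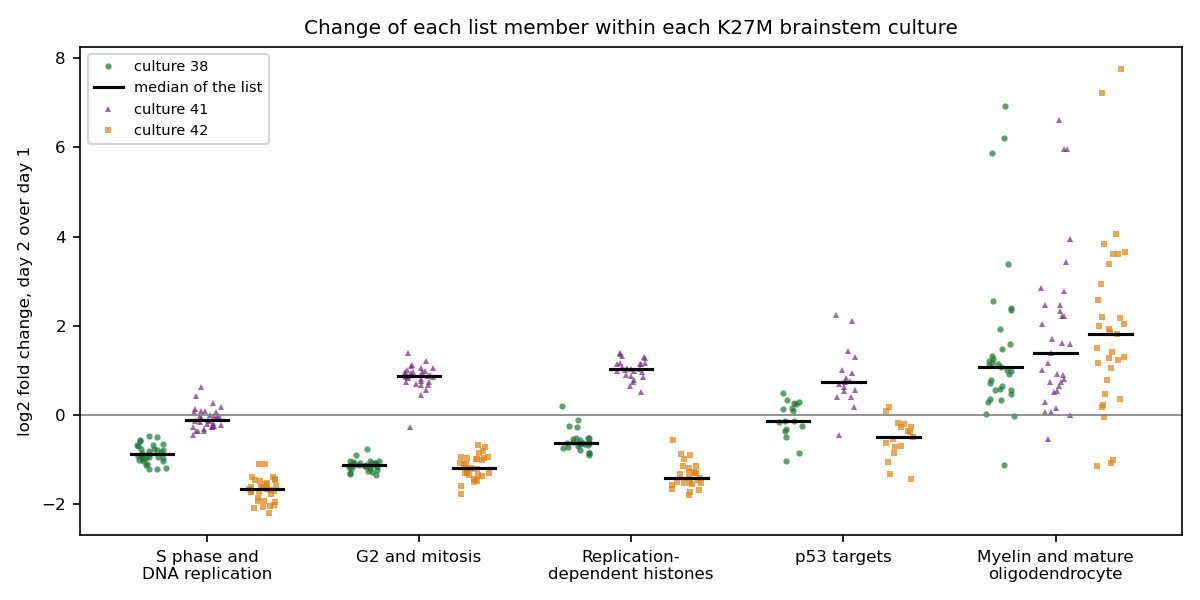
Log2 change of day 2 over day 1 for each member of 5 gene lists within cultures 38, 41 and 42; each point is a gene and each black bar the median of a list. Mitotic and histone genes lie mostly above 0 in culture 41 and below 0 in cultures 38 and 42, while myelin genes lie mostly above 0 in all 3.

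Culture 41 also had the highest level of myelin genes at day 1. The summed level of the myelin list at day 1 was 6709, 10515 and 2060 CPM in cultures 38, 41 and 42, and at day 2 it was 16775, 29642 and 8424 CPM. By day 5 the cultures were close again (43606, 43544 and 49116 CPM). Mobp and Casr took a different path: Mobp averaged 25.3, 15.2 and 0.725 CPM at day 0, 2.03, 10.1 and 0.224 CPM at day 1, and 125, 631 and 34.6 CPM at day 2. Casr reached 17.01, 65.3 and 4.23 CPM at day 2 and averaged 11.1, 11.6 and 15.9 CPM at day 5. The mean of Casr was thus higher at day 2 than at day 5 in cultures 38 and 41 and lower in culture 42.

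**Figure D4:**
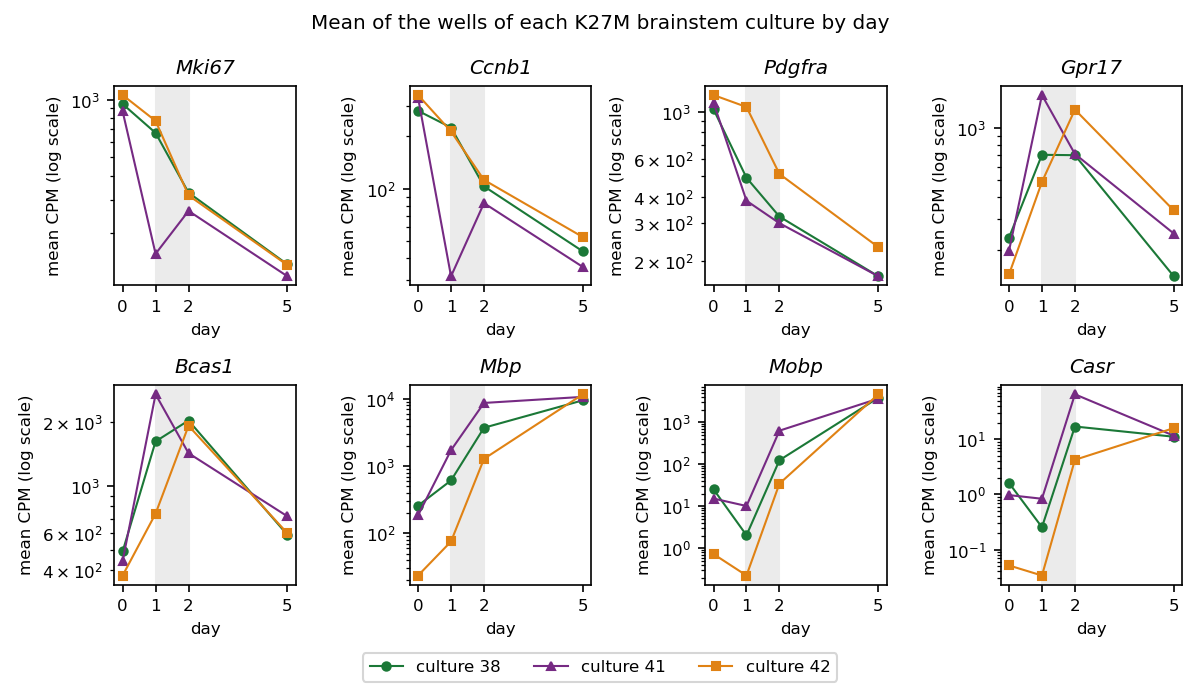
Mean CPM of 8 genes in the wells of each K27M brainstem culture at days 0, 1, 2 and 5, on a log scale, with the step from day 1 to day 2 shaded. In culture 41 Mki67 and Ccnb1 dip at day 1 and are higher at day 2, while in cultures 38 and 42 they decline; Mbp and Mobp converge by day 5.

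The lines cultured in parallel gave the same list's change under the same culture number. In K27M telencephalon culture 41, all 30 mitotic genes were above 0 at day 2 relative to day 1 (median 0.93). In control brainstem and control telencephalon of culture number 41 all 30 were below 0 (medians -1.41 and -1.38). The upward step of the mitotic genes was thus seen in both K27M lines of that number and in neither control line, in 1 pair of cultures per region and without a test. At days 2 and 1 these K27M lines were at passages 2 and 2 (brainstem) and 2 and 1 (telencephalon). The control lines were at passages 4 and 5 (brainstem) and at 3 and 2 or 4 (telencephalon). Genotype and passage cannot be told apart for this step.

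The promoters of the S phase and the mitotic genes are shown because the 2 lists moved differently in K27M brainstem culture 41. In K27M telencephalon culture 41 they moved the same way: 31 of 32 S phase genes were above 0 (median 0.48), as were all 30 mitotic genes (median 0.93). Of the 32 S phase genes 26, and of the 30 mitotic genes 24, matched a RefSeq promoter (250 bases before the start to 50 after it, GRCm38.p6). An E2F-type site, written TTTCCCGC, TTTGGCGC or TTTCGCGC on either strand, was found in 11 of the 26 S phase promoters (42.3%), in 1 of the 24 mitotic promoters (4.17%) and in 2.12% of the promoters of all 27025 genes. The cell cycle homology region, written TTTGAA on either strand, was found in 5 S phase promoters (19.2%), in 17 mitotic promoters (70.8%) and in 20.2% of all genes. The box CCAAT was found in 65.4%, 83.3% and 41.1%. A match describes letters and no binding was measured. Capitals mark E2F-type matches in Cdc6 and Mcm6, where 2 overlap in Mcm6, and TTTGAA matches in Cdk1 and Mki67. Cdk1 is also the 1 mitotic promoter with an E2F-type match, the first of its 3 runs of capitals.
Cdc6, chr11:98907901-98908200, plus strand: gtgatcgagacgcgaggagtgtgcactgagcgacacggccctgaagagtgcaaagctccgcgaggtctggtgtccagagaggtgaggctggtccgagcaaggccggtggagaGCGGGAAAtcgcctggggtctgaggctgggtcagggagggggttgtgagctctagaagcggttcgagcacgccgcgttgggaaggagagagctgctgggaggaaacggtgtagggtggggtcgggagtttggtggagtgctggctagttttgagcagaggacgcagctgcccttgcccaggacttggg
Mcm6, chr1:128359656-128359955, minus strand: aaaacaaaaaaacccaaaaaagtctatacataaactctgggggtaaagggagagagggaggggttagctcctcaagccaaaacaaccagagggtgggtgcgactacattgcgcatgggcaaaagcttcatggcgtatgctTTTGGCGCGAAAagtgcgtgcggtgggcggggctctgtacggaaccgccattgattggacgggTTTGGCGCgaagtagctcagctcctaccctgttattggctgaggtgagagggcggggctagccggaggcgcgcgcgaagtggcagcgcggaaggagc
Cdk1, chr10:69352863-69353162, minus strand: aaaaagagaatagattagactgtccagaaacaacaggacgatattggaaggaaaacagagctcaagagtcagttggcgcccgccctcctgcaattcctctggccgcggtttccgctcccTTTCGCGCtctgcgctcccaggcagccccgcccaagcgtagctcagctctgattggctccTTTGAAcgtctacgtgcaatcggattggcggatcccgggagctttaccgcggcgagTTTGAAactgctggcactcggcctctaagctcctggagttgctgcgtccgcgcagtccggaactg
Mki67, chr7:135716330-135716629, minus strand: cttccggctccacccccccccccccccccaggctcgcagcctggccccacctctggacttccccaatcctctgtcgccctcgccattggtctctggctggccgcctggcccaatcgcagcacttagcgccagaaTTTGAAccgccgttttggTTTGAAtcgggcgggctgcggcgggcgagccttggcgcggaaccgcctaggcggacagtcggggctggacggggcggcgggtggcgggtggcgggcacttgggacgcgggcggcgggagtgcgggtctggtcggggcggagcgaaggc

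Lipid synthesis, which supplies the myelin membrane, rose in parts. Of 20 genes of fatty acid and sphingolipid synthesis 15 rose and 0 fell (median 0.35), against 19.6% and 21.7% of all genes. Ugt8a, which makes the myelin lipid galactosylceramide, had 697 to 1729.5 CPM at day 2 and 167 to 886 CPM at day 1 (1.32 ± 0.15), and Elovl7, a fatty acid elongase, rose by 1.59 ± 0.14. Of 25 genes of cholesterol synthesis 10 rose and 0 fell (median 0.25), with medians of 0.02 in cultures 38 and 41 and 0.59 in culture 42. Without culture 42, 2 rose and 1 fell. Hmgcs1, which makes the precursor of mevalonate, rose by 0.41 ± 0.12 over all wells and by 1.01 within culture 42, against 0.14 and 0.03 in cultures 38 and 41, which did not pass.

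Signalling lists moved in both directions. Of all genes 19.6% rose and 21.7% fell, and several of the counts below lay near those shares. Of 20 growth factor and ERK targets 6 rose and 7 fell. Of 22 BMP pathway genes 7 rose and 4 fell (median 0.05), with 2 rising and 2 falling by at least 1 on the log2 scale. Smad7, an inhibitory SMAD, rose by 1.66 ± 0.12, and Id1, a BMP target that restrains differentiation factors, by 1.15 ± 0.12. Of 35 Wnt pathway genes 9 rose and 16 fell; Wnt3, a ligand, had 0.615 to 13.5 CPM at day 2 and 0.298 to 0.849 CPM at day 1 (2.85 ± 0.35). Of the Wnt genes that fell, Sfrp2, a secreted Wnt-binding protein, had 0.793 to 1.58 CPM at day 2 and 1.103 to 5.33 CPM at day 1 (-1.15 ± 0.25), and Fzd4, a receptor, 3.92 to 6.31 CPM at day 2 and 5.16 to 17.9 CPM at day 1 (-0.92 ± 0.15). Hes5, a Notch target that holds back differentiation, fell without overlap (4.51 to 6.63 CPM at day 2, 6.84 to 11.7 CPM at day 1, -0.91 ± 0.11), among 27 Notch pathway genes of which 3 rose and 6 fell. Of 14 thyroid hormone signalling genes tested 3 rose and 4 fell (median -0.05). Among those that rose, Klf9, which thyroid hormone induces, did not overlap between days (60.5 to 119.5 CPM at day 2, 38.2 to 49.5 CPM at day 1, 0.83 ± 0.10).

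Of 42 axon guidance genes 14 rose and 11 fell, against 19.6% and 21.7% of all genes. The same shares apply to the lists that follow. Unc5b and Unc5c, receptors for netrin, rose without overlap (2.17 ± 0.21 and 0.40 ± 0.04). Of 23 cytoskeletal genes of processes and wrapping 14 rose and 1 fell. Of 19 genes of the integrated stress response 3 rose and 9 fell, among them Slc7a5, an amino acid transporter (-1.24 ± 0.20), and Asns, asparagine synthetase (-0.77 ± 0.10). Of 20 Hox and hindbrain identity genes 1 rose and 11 fell, with a median of -0.25.

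**Figure D5:**
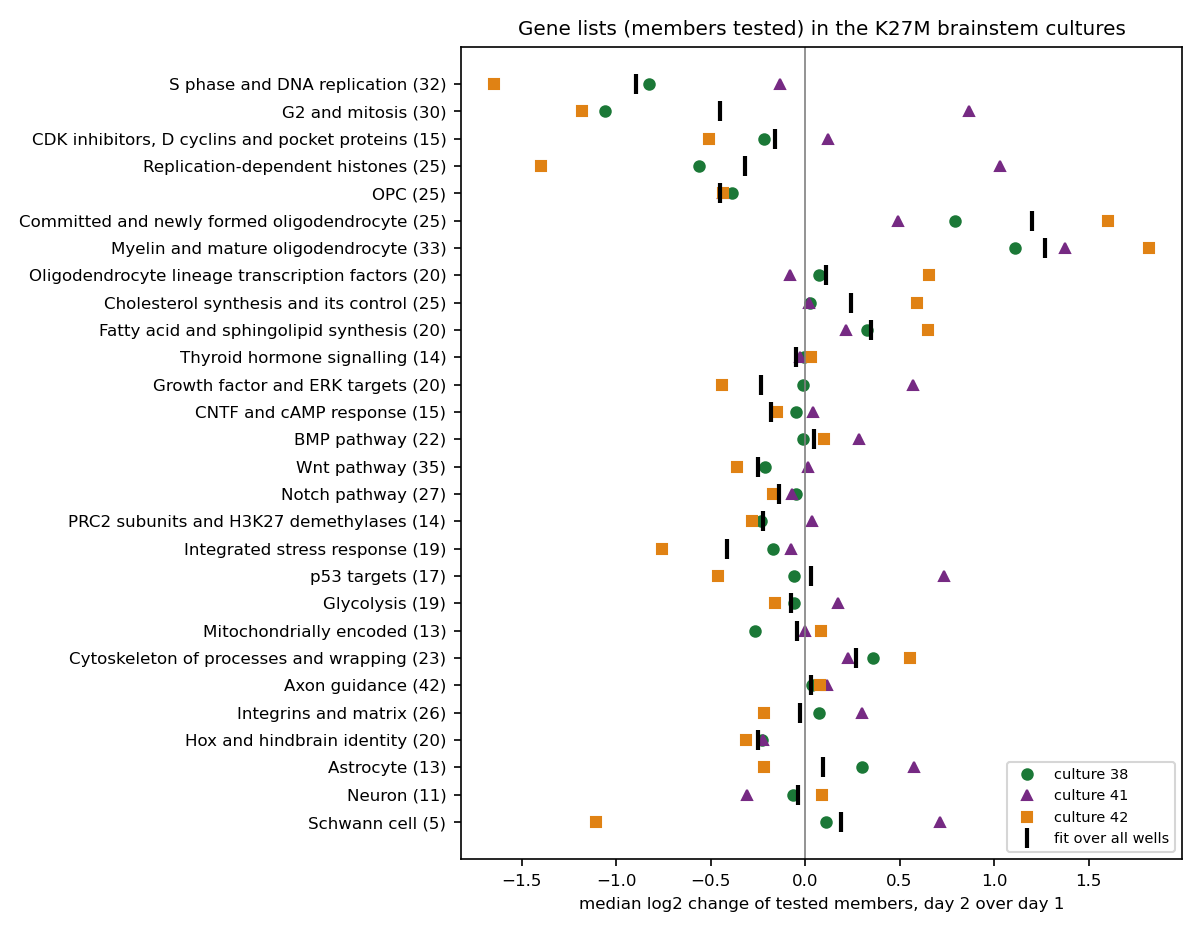
Median log2 change of day 2 over day 1 for each gene list (members tested in parentheses), within cultures 38, 41 and 42 and in the fit over all wells. Myelin and committed oligodendrocyte lists lie to the right in every culture and S phase to the left, while mitosis, histones and p53 targets lie on both sides of 0.

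Markers of other cells were counted in the same wells, where 19.6% of all genes rose and 21.7% fell. Of 13 astrocyte genes tested 6 rose and 2 fell: Gfap had 48.1 to 217 CPM at day 2 and 19.8 to 107 CPM at day 1 (1.13 ± 0.12), and Aqp4, the astrocyte water channel, 2.80 to 81.9 CPM at day 2 and 0 to 18.0 CPM at day 1 (2.84 ± 0.36). The genes that fell were Slc1a2, a glutamate transporter, with 141.7 to 193 CPM at day 2 and 129 to 335 CPM at day 1 (-0.46 ± 0.15), and Atp1b2, a sodium pump subunit, with 20.3 to 43.5 CPM at day 2 and 23.1 to 115 CPM at day 1 (-0.60 ± 0.21). In culture 42, 7 of the 13 were below 0 (median -0.22). The summed level of all 14 astrocyte genes was 521 to 963 CPM at day 2 and 543 to 861 CPM at day 1. Of 14 neuronal genes 11 were tested, with 4 higher and 4 lower, and a summed level of 273 to 515 CPM at day 2 and 146 to 310 CPM at day 1. The 12 microglial genes, of which 2 were tested, summed to 15.9 to 20.3 CPM at day 2 and 15.2 to 23.7 CPM at day 1, with a median of 0 CPM for Csf1r on both days, and the 14 vascular genes to 5.96 to 15.97 CPM at day 2 and 5.58 to 18.0 CPM at day 1. The part of other cells in the changes above was not tested, and fewer cells of a type cannot be told apart from less RNA per cell.

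Whether the step from day 1 to day 2 depended on the mutation was asked against control brainstem, as the K27M change minus the control change. Passage moved with day differently in the control lines: passage 5 at day 2 and 7 at day 1 in culture 38, 4 and 5 in culture 41, and 8 and 6 in culture 42. Control culture 38 replicate 1 at day 2 stood apart, with 53.3% of its counts in 10 genes, against at most 36.8% in every other library of the series, and 0.492% mitochondrial counts. The difference passed for 4538 of 17759 genes (25.6%), 2201 of them above 0 and 2337 below. On culture-summed counts it passed for 2 genes in edgeR, Prickle1 and Igsf11 (both adjusted p = 0.040), with 3535 at an unadjusted p under 0.05, and for 1058 in DESeq2. The median difference was -0.75 for the myelin list, with 19 of 35 genes lower and 1 higher, and -0.86 for the committed list, with 15 of 25 lower and 0 higher. The median over all genes was 0.00. Without the control library that stood apart 5163 genes passed, with 20 myelin genes lower and 2 higher, and 16 committed genes lower. With passage as a covariate 4892 passed, with 21 myelin genes lower and 1 higher, and 15 committed genes lower. The second-day change was thus lower in K27M than in control brainstem for the genes that passed below 0. For the 32 S phase and 30 mitotic genes the difference passed for 0 over the wells in edgeR and in DESeq2, and 0 had an unadjusted p under 0.05 in either, while 2 S phase genes passed above 0 with passage as a covariate. Without culture 41, 2428 genes passed in all, among them 27 of the 30 mitotic genes, each lower in K27M (median -0.92).

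The medians at day 1 differed as well, which was not tested. Mbp had 1246, 3722 and 9063 CPM in K27M at day 2, against 2013, 5102 and 5630 CPM in control. At day 1 it had 68.5, 618 and 1829 CPM in K27M, against 41.2, 123 and 172 CPM in control. The groups overlapped on both days, with K27M medians lower at day 2 and higher at day 1 (difference of the changes -2.47 ± 0.26, adjusted p = 3.1e-08). Tppp had 312 to 2293 CPM at day 2 and 27.4 to 269 CPM at day 1 in K27M, against 994 to 2096 CPM at day 2 and 24.3 to 62.4 CPM at day 1 in control (-2.22 ± 0.13). The summed myelin list had 8229, 16775 and 30107 CPM in K27M and 17532, 25883 and 29084 CPM in control at day 2. At day 1 it had 1981, 6831 and 10671 CPM in K27M and 2324, 3702 and 4828 CPM in control. These sums overlapped on both days, and K27M culture 42 at day 1 (1981 to 2105 CPM) lay below every control well.

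OPC genes showed the reverse sign: 9 of 25 differences were above 0 and passed, and 0 passed below (median 0.42). Among all 17759 genes tested, 2201 passed above 0 and 2337 below. Pdgfra had 288, 323 and 524 CPM in K27M and 256, 345.5 and 592 CPM in control at day 2. At day 1 it had 373, 487 and 1077 CPM in K27M and 784, 845 and 986 CPM in control. The difference of the changes was 0.46 ± 0.15 (adjusted p = 0.021). Of 20 growth factor and ERK targets 11 differences passed, all above 0 (median 0.90). Egr1, an immediate early transcription factor, had the largest of these: 6.65 to 28.6 CPM at day 2 and 2.17 to 16.2 CPM at day 1 in K27M, and 3.42 to 11.7 CPM at day 2 and 37.0 to 116 CPM at day 1 in control (4.44 ± 0.39, adjusted p = 1.3e-09). All control wells at day 1 were above the wells of the other 3 groups. Fos, a partner of the same early response, had a difference of 1.47 ± 0.12.

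Against K27M dorsal telencephalon, which asks whether the step depended on region, 1570 of 17719 genes passed over the wells (8.86%), 33.4% of them higher. The telencephalon wells carry other batch labels (1 and 2) than the brainstem wells (3 and 4), so region and batch cannot be told apart, and wells of a telencephalon culture and day in part differed in passage. With passage as a covariate 2016 genes passed. With DESeq2's size factors for scaling 43.7% were higher. On culture-summed counts 0 genes passed in edgeR (1268 at an unadjusted p under 0.05) and 74 in DESeq2. In the myelin list 4 of 35 differences passed, all below 0 (median -0.20), and in the committed list 3 of 25. Casr had -2.75 ± 0.70: its K27M brainstem wells had 3.73 to 66.4 CPM at day 2 and 0.0122 to 0.956 CPM at day 1, and K27M telencephalon wells 5.07 to 70.7 CPM at day 2 and 0 to 0.175 CPM at day 1. The regions overlapped on both days. Mobp had a difference of -1.83 ± 0.48 and Trf of -1.12 ± 0.20. Of the 32 S phase and 30 mitotic genes 0 passed in edgeR or in DESeq2, with 2 S phase genes lower and 1 mitotic gene higher at an unadjusted p under 0.05. The counts rested on single cultures: 671 genes passed without culture 38, 795 without culture 41, when 10 mitotic genes were higher, and 2022 without culture 42, when 16 myelin genes were lower.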

How the data were processed

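RNA-seq was available for 142 libraries of cultured OPCs (16 groups), of which 17 are described. Per the labels, a stranded kit for total RNA was used, with paired reads. The authors quantified transcripts with Salmon 1.10.1 on mm10, and the deposited values used are estimated counts (expected counts, which need not be whole) per transcript, with TPM and effective lengths beside them. Salmon divides ambiguous reads between similar transcripts, so histone genes and other near-identical copies are uncertain. Of 141084 transcripts 139821 matched GENCODE M21 (GRCm38), giving 54127 genes, and 0.252% to 0.377% of counts were left out as unmatched. Counts were summed per gene and rounded.

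Genes were filtered with filterByExpr, scaled by TMM and tested with edgeR 4.0.16 (quasi-likelihood, two-sided) in R 4.3.3, with Benjamini-Hochberg adjustment over all genes tested and a threshold of 0.05. CPM uses the TMM-scaled library sizes. Day 2 was set against day 1 with culture as a block. The differences from control brainstem and K27M telencephalon were interaction terms, each with its culture lines as blocks. Alternatives used DESeq2 1.42.0 and limma 3.58.1. The study's own model was DESeq2 with culture and a fold threshold of 1.1, an alternative here. A fit of culture by day, chosen after seeing the data, gave the change within each culture. Summed list levels are sums of CPM.

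A gene qualified if it passed over wells, passed again when cultures were summed, and kept 1 direction in every culture. Named were the 12 highest and 12 lowest qualifying protein-coding genes by fold change (mean of at least 5 CPM on a day, no provisional name), up to 4 qualifying members of each list (at least 1 CPM), the 6 highest and 6 lowest of each interaction by the same conditions, and a fixed panel of lineage and genotype genes. Some genes that met the rule or stood on the panel are not reported here. Other genes named were picked with their values in view. The members and the gene lists were chosen with earlier results of these data known. Tested on simulated data (16897 genes), the edgeR fit of day 2 against day 1 recovered 58.2%, 89.1% and 100% of genes changed by 0.5, 1 and 2 on the log2 scale, and 2.42% of its calls were false. For the K27M minus control difference (17566 genes) it recovered 33.8%, 59.7% and 91.9%, with 6.98% of calls false, and for brainstem minus telencephalon (17531 genes) 52.2%, 68.7% and 88.3%, with 3.57% false. The simulated wells were drawn independently, with the same change in every culture. In the real K27M brainstem wells 37.1% of genes changed differently between cultures, and the simulated shares do not cover that spread. Promoters came from RefSeq (GRCm38.p6). Read pairs are not unique molecules, and no 2 wells agreed within counting noise.

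Cultures paired the days: their deviations from the day mean correlated at 0.762, 0.343 and 0.391 between days. Well numbers did not (-0.307 to 0.139).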

Additional observations from a re-analysis of the deposited data

Results flagged for a closer look

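The second-day change differed between K27M and control brainstem, by the edgeR interaction over wells, for 22 of the named genes. The difference (K27M minus control, log2) was lowest for Mbp (-2.47), Tppp (-2.22), Plch2 (-2.11), Prickle1 (-1.94), Igsf11 (-1.62), Trf (-1.58) and Tmem159 (-1.52). It was -1.41 for Mog, -1.37 for Hapln2, -1.33 for Sorbs3, -1.31 for Pik3r3, -1.22 for Mobp and -1.12 for Mapk3. It was -1.07 for Plekhg1, -1.03 for Epha4, -0.95 for Ptprb, -0.94 for Ccdc13, -0.93 for Eml1, -0.72 for Bcas1 and -0.35 for Sema6d. It lay above 0 for Pdgfra (0.46) and Olig2 (0.35). On culture-summed counts, Prickle1 and Igsf11 passed and the other 20 did not.

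Between K27M brainstem and K27M telencephalon the change differed over wells for 16 of the named genes. The difference (brainstem minus telencephalon, log2) was -2.75 for Casr, -1.83 for Mobp, -1.78 for Plekhg1, -1.13 for Ptprb, -1.12 for Trf, -1.08 for Mapk3, -1.04 for Tppp and -1.01 for Prickle1. It was -0.93 for Sorbs3, -0.85 for Tmem159, -0.83 for Rapgef5, -0.79 for Ccdc13, -0.66 for Epha4, -0.65 for Eml1, -0.62 for Pik3r3 and 0.44 for Olig2. None of the 16 passed on culture-summed counts in edgeR, where 0 genes passed in all and 1268 had an unadjusted p under 0.05 (74 passed in DESeq2). No named gene had a well far from the others of its group by Dixon's test.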

How the results depend on the processing

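Of 1082 values of single genes under other settings, over 33 results, 1034 kept their direction and side of the threshold, 17 no longer passed, 16 came to pass and 15 changed sign. The 19 genes chosen for passing both tests are among these results, so this steadiness was in part selected and does not extend to all genes called. The fits with correlated wells, DESeq2 on culture sums, passage in the 2 differences and the fit without 1 control library were chosen after seeing the data. Day 2 against day 1 called 7056 genes over wells, 26 on culture-summed counts and 1564 there by DESeq2, 3816 with correlated wells, 3869 with a fold threshold of 1.1 in DESeq2 and 3121 without the culture block. Leaving out 1 library or culture gave 5385 to 7558, and passage as a covariate 7336. The K27M minus control difference called 4538 genes, 2 on culture-summed counts and 1058 there by DESeq2, 1340 with correlated wells, 2286 with the fold threshold and 2428 to 5945 without 1 culture. The brainstem minus telencephalon difference called 1570 genes, 0 on culture-summed counts and 74 there by DESeq2, 47 with correlated wells, 373 with the fold threshold, 906 without a filter on low counts and 671 to 2022 without 1 culture. With the well number as a replicate block the 3 comparisons called 5830, 3461 and 950 genes (the wells share only their number).

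The 5 genes with a changed sign did not pass over all wells. Gpr17 changed by -1.12 in culture 41 alone, -0.0024 in all 35 K27M brainstem libraries, -0.11 in all libraries of the series and -0.62 to 0.77 with 1 library or culture left out. Bcas1 changed by -0.92 in culture 41 alone and by -0.35 (without culture 42) to 0.90 (without culture 41), Sox10 by -0.10 in culture 41 alone and by -0.093 (without culture 42) to 0.35 (without culture 41), Olig2 by -0.19 (without culture 42) to 0.082 (without culture 41), and Mki67 by 0.75 in culture 41 alone. Passage as a covariate gave 4892 and 2016 for the 2 differences. Cultures 41 and 42 share a batch label and moved in opposite directions in mitotic genes; culture 38 is alone in its batch. For genes with few or no reads at day 1, such as Ermn, the size of the fitted change depends on the prior count.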
